A study of Mus musculus with 9 samples.

Results

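The genes of ovarian steroid synthesis were followed through the RNA of mouse ovaries at postnatal day (PD) 14, PD15 and PD16. The set held 10 genes, enzymes of the route from cholesterol to estradiol with their cholesterol and electron carriers, chosen by symbol out of 52025 genes listed in each of 9 expression tables. These were Star, Cyp11a1, Fdx1, Fdxr, Hsd3b1, Cyp17a1, Por, Hsd17b1, Cyp19a1 and Srd5a1, and each symbol matched 1 row. All mice were of the Kunming strain, and the labels separate the groups by age alone and name no treatment, with 3 libraries at each of PD14, PD15 and PD16. The study followed the initial formation of the follicular antrum, the fluid-filled cavity of the growing follicle, and the comparison between days asks how transcripts of the steroid pathway behaved over that window. The study describes RNA from ovaries, whereas the sample labels name granulosa cells as the source within ovary tissue.

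Steroid hormones of the ovary are made from cholesterol by enzymes split between cell types. STAR carries cholesterol to the inner mitochondrial membrane, where CYP11A1 cuts its side chain to give pregnenolone with electrons passed from FDXR through FDX1. HSD3B1 turns pregnenolone into progesterone, CYP17A1 makes androgens in theca cells with electrons from POR, and CYP19A1 (aromatase) and HSD17B1 make estradiol from these androgens in granulosa cells. SRD5A1 draws on the same precursors and reduces testosterone to dihydrotestosterone or progesterone to its reduced forms.

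Depth was 20.4 to 28.7 M mapped fragments a library (median 24.2), worked out from the steps between low values, and their summed FPKM (mapped fragments scaled to exon length and library depth) ran from 308363 to 342803. No 2 libraries held identical values, and Pearson's r of log2(FPKM + 1) was 0.985 to 0.990 between libraries of 1 day and 0.977 to 0.984 between days. Oocyte markers were abundant in each library, with Zp3 at 263 to 416 FPKM and Gdf9 at 206 to 274, beside the granulosa markers Inha, Amh and Foxl2 and the theca markers Insl3 (2.40 to 6.27) and Lhcgr (7.77 to 16.0). The libraries therefore held RNA of more cell types than granulosa cells and are called ovary libraries here. In RNA of a mixed tissue, fewer cells of a type and less RNA per cell cannot be told apart. The p-values rest on the spread between libraries of a day, pooled over PD14, PD15 and PD16 and drawn toward that of genes at a similar level. The study describes the 3 libraries a day as independent ovaries.

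On the mm10 (GRCm38) build, Star sits at chr8:25806555-25815982, Cyp11a1 at chr9:58006411-58027023, Fdx1 at chr9:51943306-51963556 and Fdxr at chr11:115268024-115277050 in the GENCODE M21 annotation. Hsd3b1 spans chr3:98852194-98859794, Cyp17a1 chr19:46667165-46673172 and Por chr5:135670033-135735326. Hsd17b1 spans chr11:101078411-101080527, Cyp19a1 chr9:54165937-54268110 and Srd5a1 chr13:69573449-69611442. Star, Cyp11a1, Por and Hsd17b1 are on the plus strand and the other 6 on the minus strand. Exons of Cyp11a1 share 145 bases (3.02% of its exon length) with the noncoding gene Gm17322, which was at 0.252 to 0.916 FPKM, and Srd5a1 shares 476 bases (16.4%) with Gm17108, which was at 0.0584 to 0.115 FPKM. The other 8 genes overlapped no exon of another gene. The FPKM of Cyp17a1 and Srd5a1 did not give whole fragments with the M21 exon lengths, while those of the other 8 did. The values of these 2 may rest on an exon length that differs from M21, which was not tested. Their spans and the shared share are those of the M21 annotation.

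Stretches before the start sites of 3 of these genes are shown from RefSeq (GRCm38.p6), because Fdxr and Cyp19a1 are the 2 genes that passed the test and Hsd3b1 is the most abundant of the 10. RefSeq starts were at hand for 7 of the 10 genes (10 starts), and none was matched for Star, Cyp17a1 or Hsd17b1. The Fdxr stretch is chr11:115277051-115277219 on the minus strand, which leaves out the 81 bases next to the RefSeq start that M21 counts as exon. The Cyp19a1 stretch, chr9:54193744-54193993 on the minus strand, is the 250 bases before the start nearest to a start codon, 1 of 3 starts of that gene. The Hsd3b1 stretch is chr3:98859795-98860044, also on the minus strand. Each is written 5′ to 3′ along the gene, and capitals mark a GATA-type motif.
Fdxr: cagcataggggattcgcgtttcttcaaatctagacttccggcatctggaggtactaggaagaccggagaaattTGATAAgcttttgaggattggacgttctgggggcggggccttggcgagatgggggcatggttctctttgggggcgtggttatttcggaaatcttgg
Cyp19a1: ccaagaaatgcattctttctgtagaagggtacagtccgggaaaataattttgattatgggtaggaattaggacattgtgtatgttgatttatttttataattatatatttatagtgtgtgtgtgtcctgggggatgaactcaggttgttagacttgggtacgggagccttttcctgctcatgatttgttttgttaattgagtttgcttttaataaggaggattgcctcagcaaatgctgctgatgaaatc
Hsd3b1: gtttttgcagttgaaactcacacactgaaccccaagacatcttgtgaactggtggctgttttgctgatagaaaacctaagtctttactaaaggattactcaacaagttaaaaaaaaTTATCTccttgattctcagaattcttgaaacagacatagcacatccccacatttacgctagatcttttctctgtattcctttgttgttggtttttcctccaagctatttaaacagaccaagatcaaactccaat

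The motifs searched on both strands of the 250 bases before each start were CAAGGTCA (steroidogenic factor 1 type), AGGTCA (nuclear receptor half-site, contained in CAAGGTCA), the GATA-type motif AGATAA, a further motif of that type, TGATAA, and the cyclic AMP response element TGACGTCA. Of the 10 starts, 5 held a match, given as a description without the share of all promoters that hold any of these motifs. TGATAA stood at -177 from the start of Fdxr and at -192 from that of Fdx1, its electron-transfer partner, and is found in 7.94% of 32851 RefSeq promoters of the same length. AGATAA stood at -134 of Hsd3b1 on the opposite strand (capitals TTATCT in the run above) and is found in 9.99% of promoters. AGGTCA, found in 14.0% of promoters, stood before 1 start of Cyp11a1 and 1 other start of Cyp19a1. All 250 bases before that Cyp11a1 start lie in M21 exons of the gene, so this match is within annotated exon. The Cyp19a1 stretch printed held none of the motifs. CAAGGTCA (1.33% of promoters) and TGACGTCA (1.55%) were not in these windows. These are matches of letters, and gene-level FPKM do not divide the transcripts of the 3 Cyp19a1 starts.

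Levels of the 10 genes, which FPKM allow to be compared per length, ran from rank 7 (Hsd3b1, PD14) to rank 11947 (Cyp19a1, PD16) of all genes listed. Hsd3b1 was the highest, with a mean of 1785 ± 316 FPKM at PD14, 1291 ± 309 at PD15 and 1273 ± 205 at PD16 (SD, n = 3), and ranked 7th, 10th and 12th of all listed genes. It alone held 0.559% of the summed FPKM at PD14, 0.400% at PD15 and 0.392% at PD16. Hsd17b1 came next on each day, with 176 ± 13.3, 147 ± 10.7 and 147 ± 16.9 FPKM (SD, n = 3). Star and Cyp19a1, at the entry and near the end of the route, were the lowest, Star at 3.89, 4.75 and 5.58 FPKM and Cyp19a1 at 5.11, 2.94 and 2.37 FPKM in the mean. Neighbours in this order whose libraries overlapped were Cyp11a1 and Fdxr, and Cyp19a1 and Star, at PD14, then Cyp11a1 and Cyp17a1, and Star and Cyp19a1, at PD15. At PD16 the libraries of Cyp17a1, Fdxr, Cyp11a1, Fdx1 and Por overlapped from each gene to the next, as did those of Srd5a1 and Star, whereas Star and Cyp19a1 were apart.

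**Figure D1:**
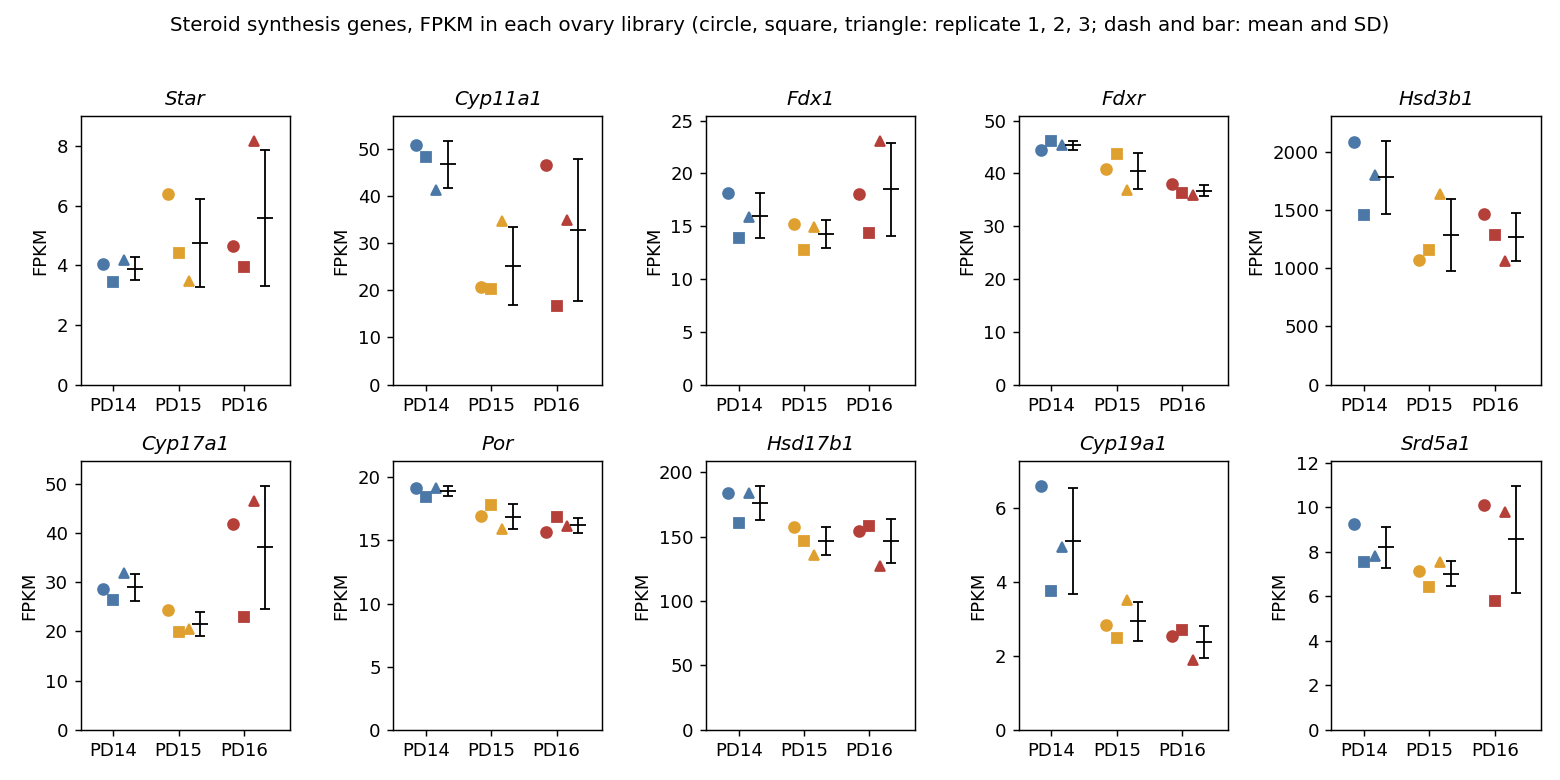
FPKM (linear axes from 0, 1 panel per gene in pathway order) of the 10 steroid synthesis genes in each ovary library at PD14, PD15 and PD16, with the mean and SD of 3 libraries beside the points. Cyp19a1 and Fdxr sit lower at PD16 than at PD14 with no overlap, while Cyp11a1 and Cyp17a1 spread widely at PD16, where replicate 2 (square) is the lowest.

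Cholesterol entry was represented by Star, the transporter whose activity limits the rate of steroid synthesis. Star was at 4.04, 3.44 and 4.18 FPKM at PD14, 6.38, 4.40 and 3.46 at PD15 and 4.63, 3.93 and 8.18 at PD16. The groups overlapped, and PD15 replicate 1 and PD16 replicate 3 were the high libraries. They lay 0.39 and 0.53 above the mean of their day in log2(FPKM + 1), while PD15 replicate 3 lay 0.33 below. The difference of each later day from PD14 therefore rests largely on its high library. The log2 difference in (FPKM + 1) from PD14 was 0.21 ± 0.24 (SE) at PD15 and 0.38 ± 0.24 at PD16, with adjusted p = 0.732 and 0.372 by limma, so that no change of Star was detected. The 95% interval of the PD16 difference ran from -0.15 to 0.91.

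Side-chain cleavage was represented by Cyp11a1 and its electron donors. Cyp11a1 was at 50.8, 48.4 and 41.2 FPKM at PD14, 20.6, 20.2 and 34.7 at PD15 and 46.6, 16.8 and 35.0 at PD16. Every PD15 library was below every PD14 library, and PD16 held both a library within the range of PD14 and the lowest of the 9. The log2 difference from PD14 was -0.91 ± 0.33 (SE) at PD15, where the mean was 46.2% below that of PD14, and -0.61 ± 0.33 at PD16, and neither passed with adjusted p = 0.243 and 0.304 by limma. The unadjusted 95% interval of the PD15 difference ran from -1.65 to -0.17. By qRT-PCR the study reported the opposite direction, with Cyp11a1 increased at PD15 and PD16, and the reason was not tested. The PD16 difference was -0.20 without PD16 replicate 2 (adjusted p = 0.672) and -0.91 without PD16 replicate 1 (adjusted p = 0.185 by limma).

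Fdxr, the reductase that feeds electrons to ferredoxin, was the steadiest of the mitochondrial genes and was lower at PD16. It was at 44.4, 46.2 and 45.4 FPKM at PD14, 40.9, 43.7 and 36.9 at PD15 and 38.0, 36.2 and 36.0 at PD16. All 3 PD16 libraries, and all 3 PD15 libraries, were below all 3 at PD14. Fdxr fell by 0.30 on the log2 scale from PD14 to PD16 (SE 0.07, 95% interval -0.45 to -0.15, adjusted p = 0.0411 by limma), with a mean 18.96% lower, and the log2 difference at PD15 was -0.16 ± 0.07 (adjusted p = 0.293). The call was close to its limit, since leaving out any 1 of the PD14 or PD16 libraries, or PD15 replicate 1, raised the adjusted p to between 0.0631 and 0.120, while the difference stayed between -0.32 and -0.28. It held in 7 of 11 fits with other settings (adjusted p up to 0.0868).

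Fdx1, the ferredoxin itself, was not called in any comparison. It was at 18.1, 13.9 and 15.9 FPKM at PD14, 15.2, 12.8 and 14.9 at PD15 and 18.04, 14.3 and 23.1 at PD16. The days overlapped, with PD16 replicate 3 the highest of the 9. The log2 difference from PD14 to PD16 was 0.18 ± 0.16 (SE) with adjusted p = 0.521 by limma. Within a library the ratio of Fdx1 to Fdxr was 0.301 to 0.409 at PD14, 0.292 to 0.404 at PD15 and 0.396 to 0.642 at PD16, given as a description with no test.

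The next step was carried by Hsd3b1, which makes progesterone and androstenedione from their precursors. Hsd3b1 was at 2091, 1460 and 1804 FPKM at PD14, 1070, 1157 and 1644 at PD15 and 1472, 1284 and 1062 at PD16. PD14 replicate 1 was the highest library and PD16 replicate 3 the lowest, and both later days overlapped PD14. The log2 difference from PD14 was -0.48 ± 0.22 (SE) at PD15 and -0.49 ± 0.22 at PD16, and did not pass with adjusted p = 0.345 and 0.219 by limma. Of the Hsd3b family, Hsd3b1 gave 99.97% of the summed FPKM of 6 genes over the 9 libraries. Hsd3b6 was at 0.300 to 0.611 FPKM, Hsd3b2 and Hsd3b3 were at 0.0531 or less, and Hsd3b4 and Hsd3b5 were listed at 0 in all 9 libraries. No stretch of 100 bases in the transcripts of Hsd3b1 was shared exactly with another gene.

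Androgen synthesis was represented by Cyp17a1 and Por. Cyp17a1, the marker enzyme of theca cells, was at 28.6, 26.4 and 31.8 FPKM at PD14, 24.4, 19.9 and 20.5 at PD15 and 41.9, 22.8 and 46.5 at PD16. The PD15 libraries were all below those of PD14, and at PD16 replicates 1 and 3 were above all other libraries while replicate 2 lay within the range of PD15. The log2 difference was -0.41 ± 0.22 (SE) from PD14 to PD15, 0.29 ± 0.22 from PD14 to PD16 and 0.70 ± 0.22 from PD15 to PD16, with adjusted p = 0.426, 0.473 and 0.188 by limma. Without PD16 replicate 2, Cyp17a1 was called higher at PD16, by 0.60 over PD14 (adjusted p = 0.0389) and by 1.00 over PD15 (adjusted p = 0.0159), so 1 library decided the call. The summed FPKM of the 10 theca and interstitial markers was 404, 340 and 349 in the PD16 libraries, of which Aldh1a1 made 169, 117 and 104. The other 9 markers summed to 234, 223 and 244 at PD16, in the same order of libraries as Cyp17a1. That order was not shared on the other days, where the 9 summed to 227, 234 and 220 at PD14 and 211, 215 and 229 at PD15. The part of these markers in the spread of Cyp17a1 was not tested.

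Por, the reductase that serves the microsomal P450 enzymes CYP17A1 and CYP19A1, had the smallest spread of the 10. It was at 19.1, 18.4 and 19.2 FPKM at PD14, 16.9, 17.8 and 15.9 at PD15 and 15.7, 16.8 and 16.2 at PD16. All libraries of PD15 and PD16 were below all of PD14. The log2 difference from PD14 was -0.16 ± 0.06 (SE) at PD15 and -0.21 ± 0.06 at PD16, with adjusted p = 0.243 and 0.0677 by limma, and did not pass.

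Estrogen synthesis was represented by Cyp19a1 and Hsd17b1. Cyp19a1, the aromatase of granulosa cells, was at 6.61, 3.77 and 4.95 FPKM at PD14, 2.84, 2.47 and 3.51 at PD15 and 2.54, 2.69 and 1.89 at PD16. Every library of PD15 and of PD16 was below every library of PD14. Cyp19a1 fell by 0.84 on the log2(FPKM + 1) scale from PD14 to PD16 (SE 0.17, 95% interval -1.23 to -0.45, adjusted p = 0.0316 by limma), and its mean was 53.6% lower, a larger relative fall since adding 1 to low FPKM shrinks the difference. At PD15 the log2 difference was -0.62 ± 0.17 with adjusted p = 0.149 by limma. The study's qRT-PCR of ovaries ran the other way, with Cyp19a1 reported as increased at PD15 and PD16. It also reported higher estradiol and progesterone in serum at PD15 and PD16, which are hormone levels and not transcripts. The reason for the difference was not tested. The FPKM of Cyp19a1 rest on 217 to 733 fragments, so that counting alone gives an SD of 6.79% in the lowest library. The call was lost without PD14 replicate 1 or 3 or without any of the PD16 libraries, where adjusted p was 0.0601 to 0.1003 and the difference -0.91 to -0.67, and it held in 7 of 10 fits with other settings (adjusted p up to 0.0915).

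Hsd17b1, which turns estrone into estradiol in granulosa cells, was at 184, 161 and 184 FPKM at PD14, 157, 147 and 136 at PD15 and 154, 158 and 127 at PD16. All libraries of both later days were below those of PD14. The log2 difference from PD14 was -0.26 ± 0.10 (SE) at PD15 and -0.27 ± 0.10 at PD16, and did not pass with adjusted p = 0.276 and 0.161 by limma. Other members of the family were also transcribed, with Hsd17b10 at 69.3 to 92.1 FPKM, Hsd17b4 at 39.7 to 46.0 and Hsd17b12 at 27.3 to 38.4. Hsd17b11 was at 18.4 to 24.6, Hsd17b7 at 8.67 to 15.4, Hsd17b2 at 0.349 to 0.944 and H2-Ke6 at 0 to 0.160 FPKM. Hsd17b1 made up 45.3% of the summed FPKM of 9 such genes. The log2 difference of Hsd17b7 from PD14 was 0.48 ± 0.13 (SE) at PD15 and 0.43 ± 0.13 at PD16. It did not pass, with adjusted p = 0.148 and 0.0935 by limma, and no other tested member of the family was called. Hsd17b3, the testicular form that makes testosterone, was at 0.267 FPKM or less.

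Srd5a1, the reductase that turns testosterone and progesterone to their reduced forms, was at 9.23, 7.56 and 7.80 FPKM at PD14, 7.13, 6.42 and 7.53 at PD15 and 10.1, 5.78 and 9.78 at PD16. PD16 held both the lowest library, replicate 2, and the highest, replicate 1. The log2 difference from PD14 was -0.19 ± 0.17 (SE) at PD15 and 0.03 ± 0.17 at PD16, with adjusted p = 0.639 and 0.946 by limma. Srd5a3 was at 5.22 to 6.47 FPKM and Srd5a2 at 0.163 to 0.630.

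Set side by side, 9 of the 10 genes had a log2 difference below 0 at PD15 relative to PD14, the exception being Star, against 48.1% of the 15495 genes tested. None of the 10 was called by limma in that comparison, where 0.678% of all genes were (0.342% lower and 0.336% higher), and 5 had an unadjusted p under 0.05, as did 14.7% of all genes. The libraries of 7 genes (Cyp11a1, Fdxr, Cyp17a1, Por, Hsd17b1, Cyp19a1 and Srd5a1) were all lower at PD15 than at PD14, a separation found downward for 10.2% of all genes and upward for 10.4%. The median log2 difference was -0.23, and 0.01 over all genes.

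From PD14 to PD16, 2 of the 10 genes were called, both lower (Fdxr and Cyp19a1), where 4.25% of all genes were called, 1.89% lower and 2.36% higher. Differences were below 0 for 6 genes and above 0 for Star, Fdx1, Cyp17a1 and Srd5a1, against 47.8% of all genes below 0. The libraries of Fdxr, Por, Hsd17b1 and Cyp19a1 were all lower at PD16, as were those of 13.5% of all genes. The median was -0.24 for the 10 genes and 0.01 over all genes. Both comparisons share the PD14 libraries.

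From PD15 to PD16, none of the 10 was called by limma, where 0.729% of all genes were (0.297% lower and 0.432% higher), and 1, Cyp17a1, had an unadjusted p under 0.05, as did 14.1% of all genes. Differences were above 0 for 5 genes and below 0 for 5, against 46.8% of all genes below 0, and for none of the 10 were the libraries of the days apart, against 9.85% of all genes apart upward and 9.73% downward. The moderated F test among the 3 days called none of the 10 (5 at an unadjusted p under 0.05, as were 22.3% of all genes), where 3.03% of all genes were called, and Cyp19a1 had the lowest adjusted p, 0.0565.

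**Figure D2:**
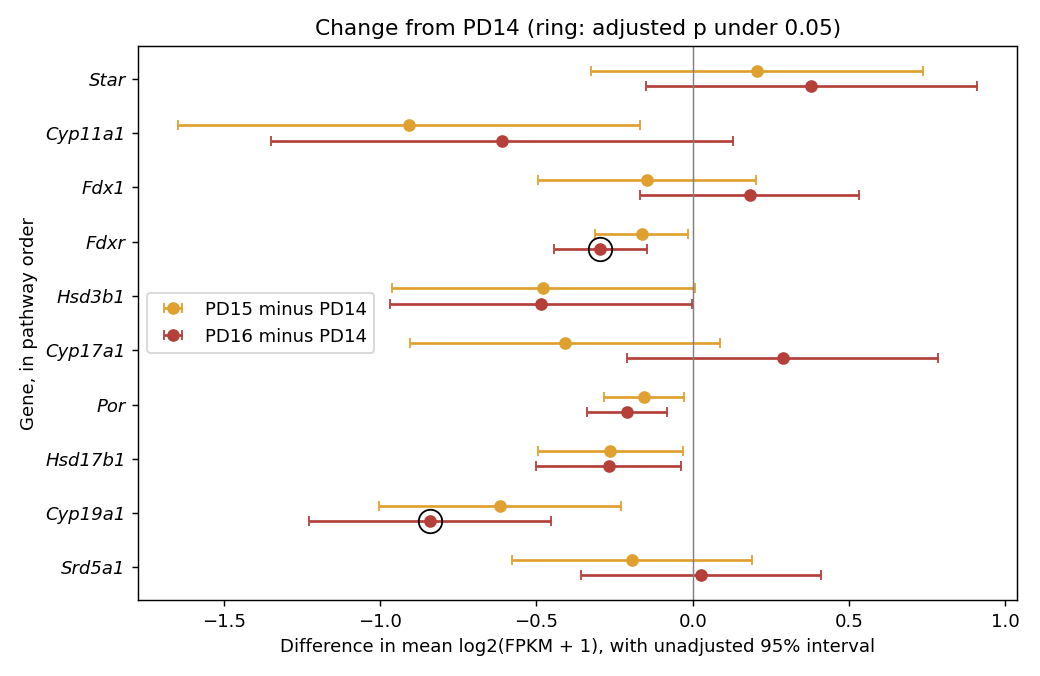
Difference in mean log2(FPKM + 1) from PD14 for the 10 genes in pathway order at PD15 and PD16, with bars for the unadjusted 95% interval of the limma fit and rings for an adjusted p under 0.05. Rings mark Fdxr (-0.30) and Cyp19a1 (-0.84) at PD16, and the widest bars belong to Cyp11a1.

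The genes differed in how far libraries of 1 day lay apart. The SD around the day means on the log2(FPKM + 1) scale was 0.50 for Cyp11a1, 0.35 for Star, 0.33 for Cyp17a1 and 0.28 for Hsd3b1, against a median of 0.11 over all genes tested. Cyp11a1 was more variable in this sense than 97.7% of the genes tested, Star than 94.9% and Cyp17a1 than 94.2%. Por at 0.06 and Fdxr at 0.07 were among the steady genes, with only 8.87% and 22.5% of all genes below them. The lowest library of Cyp11a1 held 1827 fragments, with a counting SD of 2.34%.

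PD16 replicate 2 was the lowest PD16 library for 5 of the 10 genes. Its deviations from the PD16 mean were -0.81 for Cyp11a1, -0.61 for Cyp17a1, -0.46 for Srd5a1, -0.36 for Star and -0.32 for Fdx1. In the same library Hsd3b1 (0.03), Hsd17b1 (0.11) and Cyp19a1 (0.14) were not low. PD15 replicate 3 was high for Cyp11a1 (0.49) and Hsd3b1 (0.38) and low for Star (-0.33).

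After the day means were taken off, the pairs that varied most alike were Cyp11a1 and Srd5a1 (Pearson r = 0.89), Cyp17a1 and Srd5a1 (0.87), Hsd3b1 and Cyp19a1 (0.85), Fdx1 and Srd5a1 (0.83) and Fdx1 and Cyp17a1 (0.81), over 9 libraries. Of 45 pairs, 11 had r above 0.5 and 5 had r below -0.5. These are descriptions over few points that share libraries, depth and tissue make-up.

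**Figure D3:**
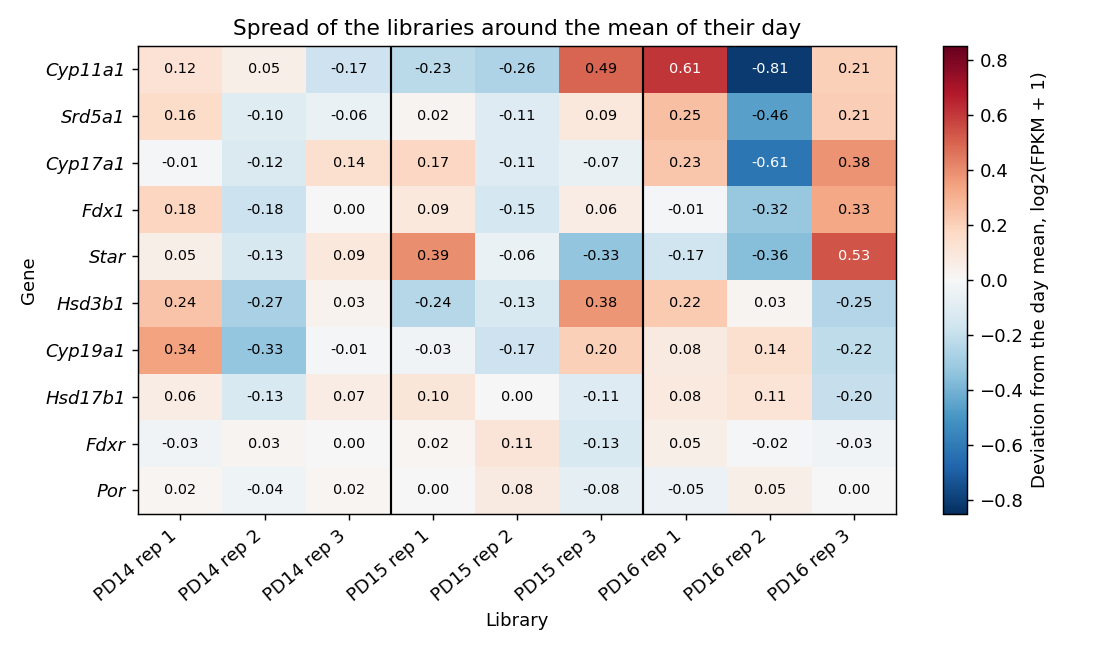
Deviation of each library from the mean of its day in log2(FPKM + 1), with libraries in columns, genes in rows and vertical lines between the days. PD16 replicate 2 is low for Cyp11a1 (-0.81), Cyp17a1 (-0.61) and Srd5a1 (-0.46), and the rows of Fdxr and Por are close to 0.

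Ratios of FPKM within a library show how the steps stood to each other, and were not tested. Cyp19a1 was 0.231, 0.143 and 0.156 of Cyp17a1 at PD14, 0.116, 0.124 and 0.171 at PD15 and 0.0608, 0.118 and 0.0405 at PD16, with the highest value at PD14 and the 2 lowest at PD16. Cyp17a1 to Cyp11a1 was 0.547 to 0.772 at PD14, 0.591 to 1.18 at PD15 and 0.898 to 1.36 at PD16, so that Cyp17a1 was below Cyp11a1 in all PD14 libraries and above it in 2 of 3 PD16 libraries. Hsd17b1 was 27.8 to 42.7 times Cyp19a1 at PD14, 38.7 to 59.4 times at PD15 and 58.8 to 67.4 times at PD16. Hsd3b1 to Cyp11a1 ran from 30.2 to 43.8 at PD14, 47.4 to 57.3 at PD15 and 30.3 to 76.7 at PD16. Cyp11a1 was 9.87 to 14.1 times Star at PD14, 3.23 to 10.03 times at PD15 and 4.26 to 10.1 times at PD16.

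**Figure D4:**
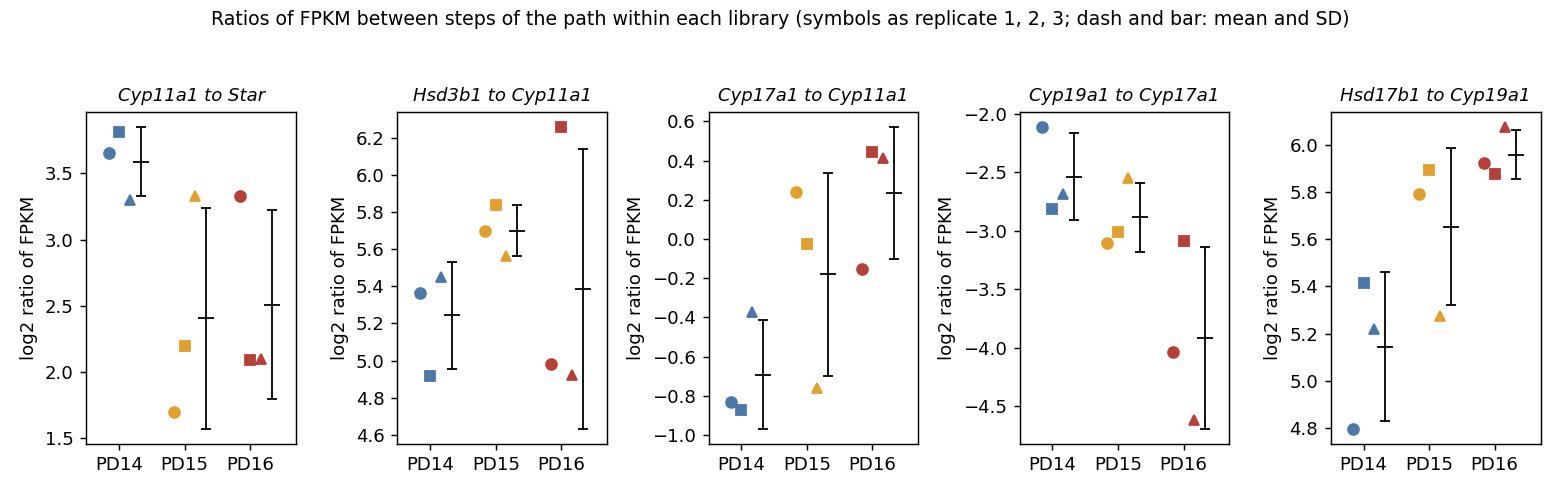
Log2 ratio of FPKM between genes of the route within each library (1 panel per ratio, own axis), with the mean and SD of 3 libraries beside the points. The ratio of Hsd17b1 to Cyp19a1 is higher in every PD16 library (58.8 or more) than in any PD14 library (42.7 or less), and that of Cyp19a1 to Cyp17a1 is lower.

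Genes around the pathway were read from lists. Of 15 genes of cholesterol delivery, 14 were tested and limma called none in any comparison, with Vdac1 (91.3 to 108 FPKM), Soat1 (45.9 to 91.3) and Dbi (37.1 to 55.4) the highest. Of 20 regulators all were tested and none was called, among them Prkar2b (172 to 279 FPKM), Foxl2 (128 to 183) and Nr5a2 (109 to 139). The counts at an unadjusted p under 0.05 were 5, 4 and 1 for cholesterol delivery and 5, 10 and 6 for the regulators, in the order PD15 against PD14, PD16 against PD14 and PD16 against PD15, where 14.7%, 22.8% and 14.1% of all genes passed that level.

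Of 24 other steroid enzymes 10 were tested, and 1 was called, lower from PD14 to PD16, where 1.89% of all genes were called lower. An unadjusted p under 0.05 was found for 3 of the 10 from PD14 to PD15, 5 from PD14 to PD16 and 1 from PD15 to PD16, beside 14.7%, 22.8% and 14.1% of all genes. Cyb5r3, a reductase that donates electrons to cytochrome b5, was at 40.1, 42.2 and 39.9 FPKM at PD14, 33.5, 34.4 and 31.1 at PD15 and 32.7, 33.3 and 31.1 at PD16. All libraries of the later days were below PD14, and Cyb5r3 fell by 0.32 on the log2 scale from PD14 to PD16 (SE 0.06, adjusted p = 0.0224 by limma). The call was lost without PD14 replicates 1, 2 or 3 or PD16 replicates 1 or 3, each left out alone, where adjusted p was 0.0509 to 0.0699. Cyb5a, the cytochrome b5 that aids CYP17A1, was at 131 to 200 FPKM with adjusted p = 0.181 for PD16 against PD14.

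Of 13 matched genes of steroid inactivation 9 were tested, and 2 were called. The calls numbered 1 from PD14 to PD15, 2 from PD14 to PD16 and 1 from PD15 to PD16, where 0.678%, 4.25% and 0.729% of all genes were called, and 2, 3 and 3 of the 9 had an unadjusted p under 0.05. Akr1c18, which breaks down progesterone, was at 10.55, 4.73 and 8.95 FPKM at PD14, 17.9, 19.7 and 23.2 at PD15 and 1.95, 2.55 and 1.89 at PD16. The 3 days did not overlap, with PD15 the highest and PD16 the lowest. The log2 difference was 1.28 ± 0.23 (SE) from PD14 to PD15, -1.48 ± 0.23 from PD14 to PD16 and -2.76 ± 0.23 from PD15 to PD16, with adjusted p = 0.0458, 0.0148 and 0.00149 by limma. The fall from PD15 to PD16 was called in each fit that left out 1 library, whereas the PD15 rise was lost without PD14 replicate 3 or without any 1 library of PD15 or PD16 (adjusted p 0.0644 to 0.131) and held in 4 of 11 fits with other settings (0.0382 to 0.142), and the PD16 fall from PD14 was lost without PD14 replicate 3 or PD16 replicate 1 (0.0595 and 0.0590).

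Hsd11b2, which inactivates corticosterone, was at 26.6, 26.8 and 21.9 FPKM at PD14, 43.2, 33.1 and 33.7 at PD15 and 39.1, 35.7 and 42.6 at PD16. All libraries of both later days were above PD14, and the log2 difference at PD16 was 0.62 ± 0.12 (SE, adjusted p = 0.0262 by limma). It was lost without PD14 replicate 1 or 3 or PD16 replicate 1 or 3 (adjusted p 0.0614 to 0.0934). Akr1c14, which acts on dihydrotestosterone, was at 154 to 217 FPKM and was not called, nor was Papss1, an enzyme that makes the sulfate donor used on steroids, at 33.3 to 38.1 FPKM (adjusted p = 0.717 for PD16 against PD14 by limma).

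Markers of cell types that carry these enzymes, or that could bring them in from outside, were summed by library. The 12 granulosa markers summed to 3262 to 3970 FPKM at PD14, 3113 to 3482 at PD15 and 3260 to 3824 at PD16. Inha, the inhibin alpha subunit, made 2048 to 2629, 1780 to 2140 and 1985 to 2429 FPKM of these sums, and the other 11 summed to 1214 to 1359, 1291 to 1342 and 1274 to 1425, with the days overlapping. Inhba, which encodes the activin beta A subunit, was at 53.9 to 122 FPKM at PD14, 34.4 to 57.1 at PD15 and 36.4 to 46.3 at PD16, with adjusted p = 0.0637 for PD16 against PD14 by limma. Fst was at 105 to 125, 102 to 117 and 134 to 152 FPKM on the same days, with adjusted p = 0.0814 for that comparison by limma. Of the 12 granulosa markers, 6 were higher and 6 lower at PD16 than at PD14. At PD16 against PD14 Amh was called higher (0.47, adjusted p = 0.0223) and Kitl lower (-0.50, adjusted p = 0.0494) by limma. The 10 theca and interstitial markers summed to 423 to 428, 344 to 413 and 340 to 404 FPKM, with none of the genes called. Aldh1a1 was at 193 to 203, 133 to 185 and 104 to 169 FPKM, and without it the other 9 summed to 220 to 234, 211 to 229 and 223 to 244, with the days overlapping. The 12 oocyte markers summed to 1195 to 1481, 1555 to 1684 and 1143 to 1220 FPKM. Of these, limma called Nlrp5 higher at PD15 than at PD14 (adjusted p = 0.0377) and lower at PD16 than at PD15 (0.0439). Zp2 was called lower at PD16 than at PD15 (0.0427 by limma) and Bmp15 higher at PD16 than at PD14 (0.0331). By direction, 9 of the 12 were higher at PD15 than at PD14 and 3 lower. At PD16, 9 of the 12 were lower than at PD14 and 3 higher, and all 12 were lower than at PD15. Over all genes, 48.1%, 47.8% and 46.8% had a difference below 0 in these comparisons. The 8 macrophage and blood genes summed to 110 to 145, 50.0 to 67.8 and 65.9 to 121 FPKM, and the hemoglobin gene Hba-a1 was called lower at PD15 than at PD14 (adjusted p = 0.0381). The 6 endothelial markers summed to 57.6 to 60.9, 53.1 to 57.3 and 51.8 to 54.5 FPKM, with all libraries of the later days below PD14 and none of the genes called. The 8 stroma and smooth muscle markers summed to 567 to 575, 497 to 543 and 566 to 664 FPKM, and Cnn1 was called higher at PD16 than at PD14 (0.61, adjusted p = 0.0348 by limma). These marker calls were each lost in at least 1 of the fits that left out 1 library. The part of these sums in the values of the 10 genes was not tested.

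Of the adrenal cortex genes, Cyp11b2 was listed at 0 in all 9 libraries, Cyp21a1 was at 0.153 FPKM or less and Cyp11b1 at 0.273 or less, while Mrap was at 3.59 to 6.30. Akr1b7, on the same list, was at 1.96 FPKM in PD16 replicate 3 against 0.131 to 0.420 in the other 8 libraries. That library also held the 0.273 of Cyp11b1 and was the highest of the 9 for Star, Fdx1 and Cyp17a1, while Cyp21a1 was at 0.0184 and Mrap at 4.65 in it. Mc2r, the receptor for adrenocorticotropic hormone, was at 0.0252 FPKM there, the lowest of the 9 libraries, and at 0.0564 to 0.277 in the other 8. Without PD16 replicate 3 the log2 difference from PD14 to PD16 was 0.11 for Star, 0.017 for Fdx1 and 0.098 for Cyp17a1, none called. The part of adrenal cortex RNA was not tested. Ovgp1, Pax8 and Foxj1 of the oviduct and Adipoq, Cidec and Ucp1 of fat had mean FPKM of 1 or less on each day, with the 4 muscle genes summing to 1.16 FPKM or less. Krt8, Krt18 and Krt19, genes of epithelium, were called lower at PD16 than at PD14, while Upk1b, the other epithelial gene tested, was not called (0.09 on the log2 scale, adjusted p = 0.772 by limma), and Plin1, a lipid-droplet gene also used by steroid-making cells, was lower on both later days; their part was not tested either.

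The genes whose log2(FPKM + 1) was most like that of the main members over the 9 libraries are given as a description, since the highest r among 15495 genes over 9 points is high for any gene. For Cyp11a1 these were AW549877 (r = 0.95), Mgarp (0.94) and Cxcl16 (0.93), and for Cyp17a1 Ndrg2 (0.94), Slc25a34 (0.92) and an unnamed transcript (0.91). For Cyp19a1 they were Mir703 (0.97), Nacc2 (0.97) and Pip5k1b (0.96), and for Star Gtf2ird2 (0.98), 4930563E22Rik (0.96) and Vldlr (0.95).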

How the data were processed

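RNA from mouse ovaries was sequenced from 9 libraries, 3 each at PD14, PD15 and PD16. The authors deposited FPKM, normalized by exon length and mapped fragments, in 1 table per library, and the values were used as deposited. HISAT2 2.0.5 and mm10 are named in the submitters' processing notes; the counter and the annotation are not given in the sources used here. Of 52025 genes listed, 50376 (96.8%) had an ID in GENCODE M21, whose exon lengths turned 94.8 to 95.0% of low values into whole fragments within 0.05 and gave the depths. Counting SDs cover counting error only.

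The 15495 genes whose mean passed 1 FPKM for any day, all 10 steroid genes included, were compared on log2(FPKM + 1) with limma 3.58.1 in R 4.3.3, with an intensity trend and the 9 libraries in 1 model. P-values were two-sided, adjusted by Benjamini-Hochberg over all genes tested and called under 0.05. The script was tested on simulated data for PD16 against PD14 (15495 genes, 200 changed), where it recovered 52.5%, 91% and 97.5% of log2 changes of 0.5, 1 and 2. Tables and plots used Python 3.11.15, NumPy 2.4.6, pandas 2.3.3 and Matplotlib 3.10.9. Named genes were the 10, the called and the 3 most abundant genes of each pathway list, the family members and the defining genes of the marker lists. Other marker genes were named after their values were seen. The members and lists were chosen with earlier results of these data known. Alternatives in pseudocount, filter, scaling, moderation, weights, block and libraries are in the closing section.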

Additional observations from a re-analysis of the deposited data

How the results depend on the processing

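The calls among the 10 genes were sensitive to the fit, while directions of the called genes were not. Against 2 genes called from PD14 to PD16, there were 0 with no filter on level, 1 with a mean FPKM above 5, 1 with each library scaled to the same sum, 1 without a trend, 0 with a replicate block, 1 with only the 2 days compared and 0 to 2 when 1 library was left out. Fdxr stayed below 0 in each of these fits and Cyp19a1 in each that tested it; the filter at 5 leaves Cyp19a1 out. Both calls were lost with no filter (adjusted p = 0.0915 for Cyp19a1, 0.0802 for Fdxr) and a replicate block (0.0626, 0.0769), that of Fdxr also with equal sums (0.0868) and no trend (0.0541), and that of Cyp19a1 with only the 2 days (0.0565). Of the pathway genes called, the Akr1c18 rise at PD15 was lost with pseudocounts of 0.1 (adjusted p = 0.0572) and 0.5 (0.0515), no filter (0.142), no trend (0.0576), robust moderation (0.0547), a replicate block (0.0972) and only the 2 days (0.0945). From PD14 to PD16, Akr1c18 was lost with no filter (0.0508), Cyb5r3 with equal sums (0.0553) and Hsd11b2 with no filter (0.0733), equal sums (0.0586) and a replicate block (0.0511). From PD15 to PD16 leaving out 1 library gave 0 to 1 call, and the F test called 1 with equal sums, 2 with array weights and 0 to 1 with a library left out. For the 13 calls of marker genes the alternatives were added after seeing the data: no direction turned, 1 (Krt18) held with no filter and 6 with a replicate block, and 13 were lost in some fit with a library left out (adjusted p up to 0.141).

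Counts over all genes moved as well. PD15 against PD14 called 105 genes, and 29 with no filter, 59 with a mean above 5, 184 with array weights, 46 with only those days and 3 to 92 with a library left out. PD16 against PD14 called 659, and 172 with no filter, 397 with equal sums, 323 with only those days and 92 to 660 with a library left out. PD16 against PD15 called 113, and 24 with no filter, 237 with array weights and 14 to 125 with a library left out. The F test called 469, and 95 with no filter, 309 with equal sums, 878 with array weights and 100 to 354 with a library left out. The cause of these shifts was not tested.

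With array weights the sign turned, with no call, for Srd5a1 from PD14 to PD16 (-0.11) and from PD15 to PD16 for Star (-0.014), Hsd3b1 (0.11) and Hsd17b1 (0.012). With a library left out the sign also turned for Srd5a1 from PD14 to PD16 (-0.10 to 0.26) and, from PD15 to PD16, for Hsd17b1 (-0.062 to 0.093), Hsd3b1 (-0.13 to 0.18), Cyp11a1 (-0.0067 to 0.70) and Star (-0.094 to 0.37).

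Libraries that share a replicate number did not deviate together: r of their deviations was -0.21 to 0.16, above 0.1 in 2 of 9 pairs, and 5 of 18 comparisons found the same number best. A replicate block called 24 genes for PD15 against PD14, 227 for PD16 against PD14, 56 for PD16 against PD15 and 127 by the F test, and 0 of the 10 genes for PD16 against PD14. Depth limits the low genes most, Cyp19a1 with 217 fragments and Star with 342 in the lowest library.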
